A study of Mus musculus with 20 samples.

Results

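Forced expression of the long noncoding RNA Platr18 was read out in 6 RNA-seq libraries of NMuMG cells, out of 20 libraries in the series. NMuMG is an epithelial line from the normal mammary gland of the mouse. The libraries were 2 of Platr18 clone 12, 2 of Platr18 clone 16 and 2 of cells given an empty vector. All were grown as flat cultures in serum-containing medium and carried no silencing construct. The promoter that drove Platr18 was not given in the sources used here, nor was it stated whether the empty vector cells were a clone or a mixed population. Each clone is 1 cell line, so the 2 libraries of a clone are not 2 separate lines, and nothing in the labels said that the 2 libraries of a group came from separate cultures. The p-values below therefore measure only the spread between libraries of the same group, estimated together over all 20 libraries of the series. The remaining libraries used below were untreated NMuMG, NMuMG treated with TGFβ, NMuMG silenced for the RNA-binding protein hnRNP E1 (E1KD), and E1KD cells carrying either a scrambled shRNA (E1KD SCR) or an shRNA against Platr18 (E1KD Platr18 KD). Also used were M1P and L1P, lines silenced for hnRNP E1. They were grown from a primary tumor (M1P) and lung metastases (L1P) of E1KD cells injected into the mammary fat pad of NOD/SCID mice.

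Platr18 belongs to a group of noncoding RNAs named for their presence in pluripotent embryonic stem cells. It is a nuclear long intergenic RNA, also known as Lncenc1, and it has no protein product. Loss of epithelial features after TGFβ, the epithelial-mesenchymal transition, is the setting in which it was studied here. The question put to the data was which genes moved the same way in both clones against the empty vector. With 1 line per clone, a gene called in a single clone cannot be told apart from a trait of that line. Both clones were set against the same 2 empty vector libraries, so a gene in which those 2 libraries stood apart from NMuMG cells in general also appears as shared, and the design alone cannot tell the 2 apart.

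Levels are CPM, counts per 1e6 reads, and differences are log2 fold changes of CPM + 1, which understate the change of genes below about 1 CPM. A gene was tested when it reached 1 CPM in at least 2 of the 6 libraries, which 15178 of 54986 genes did. It was called in a clone at an unadjusted limma p under 0.001 with a log2 fold change of at least 1 in size, and it was shared when called the same way in both clones. The 6 libraries were scaled to between 65.2 and 73.0 M reads (M, 1e6 reads), so 3 reads corresponded to 0.0411 to 0.046 CPM. The line carried epithelial RNA in all 6 libraries. Cdh1, which encodes E-cadherin, averaged 126.0 CPM in the control cells, 133.0 CPM in clone 12 and 127.0 CPM in clone 16, and the keratin gene Krt8 averaged 1112, 1360 and 1297 CPM. However, Epcam and Cldn3, which usually mark epithelial cells, were listed at 0 in all 6 libraries.

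Platr18 itself came first. It appears in the table as Lncenc1 (ENSMUSG00000078952.9, GRCm38.p6 chr13:97434970-97497008, plus strand). It was at 3092 and 3096 CPM in clone 12, at 813.0 and 820.0 CPM in clone 16, and at 3.68 and 3.06 CPM in empty vector. Both clones therefore stood far above the control, by 918.0-fold and 242.0-fold in mean CPM, and clone 12 carried more than clone 16. The log2 fold changes were 9.47 ± 0.0926 (SE) in clone 12 and 7.55 ± 0.0926 in clone 16, with limma Benjamini-Hochberg adjusted p of 5.2e-17 and 9.2e-16. None of the 16 tested protein-coding genes within 1 Mb of Platr18 was called in either clone. Their median log2 fold change was 0.088 in clone 12 and 0.071 in clone 16, against 0.0067 and 0.029 over all genes tested.

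In clone 12, 193 genes were called higher (1.27% of those tested) and 429 lower (2.83%). In clone 16, 132 were called higher (0.87%) and 172 lower (1.13%). The genes called the same way in both clones numbered 83, of which 22 were higher (0.145% of genes tested, Platr18 included) and 61 were lower (0.402%). They made up 13.3% of the 622 calls of clone 12 and 27.3% of the 304 calls of clone 16. A further 20 entries were called in opposite directions in the clones. The largest limma Benjamini-Hochberg adjusted p of a shared gene was 4.9e-04 in clone 12 and 6.9e-04 in clone 16. These are bulk libraries, in which fewer cells of a kind and less RNA per cell cannot be told apart. By the annotation of the table, 21 of the higher and 58 of the lower genes were protein coding.

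**Figure D1:**
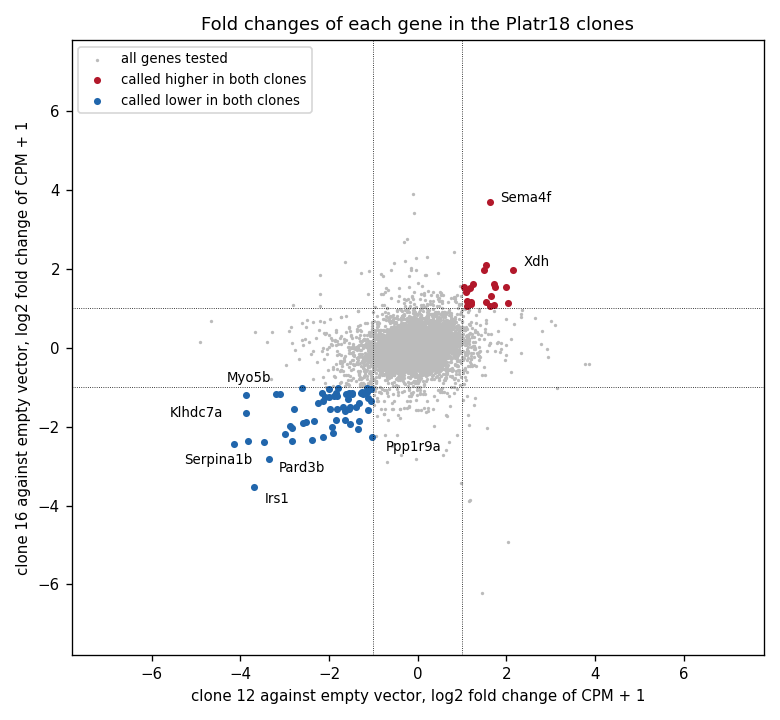
Log2 fold change of CPM + 1 against empty vector in clone 12 (x axis) and clone 16 (y axis) for each gene tested. Grey points are all genes, red and blue points are the genes called higher and lower in both clones, and dotted lines mark a log2 fold change of 1 in size. Platr18 (9.47 and 7.55) lies outside the axes, Sema4f is the red point furthest up and Irs1 the blue point furthest down.

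Without Platr18, the 21 higher genes had a median log2 fold change of 1.53 in clone 12 (range 1.05 to 2.15) and 1.46 in clone 16 (range 1.05 to 3.69). Xdh, the xanthine dehydrogenase that forms uric acid, was at 5.01 and 5.17 CPM in clone 12, at 4.23 and 4.61 CPM in clone 16, and at 0.384 and 0.362 CPM in empty vector. It rose by 2.15 ± 0.0594 (SE) and 1.98 ± 0.0594 on the log2 scale, and the 4 clone libraries lay within a narrow band above the control. Sema4f, a transmembrane semaphorin of the axon guidance family, was at 2.42 and 2.91 CPM in clone 12, at 13.5 and 15 CPM in clone 16, and at 0.123 and 0.232 CPM in empty vector. Its rise was larger in clone 16, which held less Platr18, than in clone 12. Tfcp2l1, a transcription factor of the pluripotency network that is also present in ductal epithelia, was at 18.6 and 18.6 CPM in clone 12, at 16.9 and 17.4 CPM in clone 16, and at 5.06 and 4.83 CPM in empty vector. It rose 3.76-fold and 3.47-fold in mean CPM.

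Renbp, an enzyme of amino sugar metabolism, was at 12.6 and 13.7 CPM in clone 12, at 19 and 20.5 CPM in clone 16, and at 3.67 and 3.94 CPM in empty vector. Igsf11, an immunoglobulin adhesion molecule of synapses, was at 6.27 and 6.07 CPM in clone 12, at 5.35 and 5.15 CPM in clone 16, and at 1.15 and 1.12 CPM in empty vector. Both genes were chosen for a rise in the clones, so their separation from empty vector follows from the choice. The clones did not overlap each other either, and the share of all genes with such a separation was not computed. Dtna, a component of the dystrophin complex, rose from 0.274 and 0.29 CPM to 4.1 CPM in both clone 12 libraries and to 2.72 and 2.79 CPM in clone 16. Bsn, the presynaptic scaffold protein Bassoon, was at 7.26 and 8.74 CPM in clone 12, at 6.89 and 8.14 CPM in clone 16, and at 2.78 and 3.1 CPM in empty vector.

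Several of the higher genes encode inflammatory mediators or matrix factors. Ptgs2, the inducible cyclooxygenase of prostaglandin synthesis, was at 45.9 and 49.0 CPM in clone 12, at 67.1 and 67.0 CPM in clone 16, and at 14 and 18.7 CPM in empty vector. Il11, a cytokine of the interleukin-6 family, was at 1.37 and 1.63 CPM in clone 12, at 1.8 and 2.44 CPM in clone 16, and at 0.205 and 0.13 CPM in empty vector. Mmp13, a collagenase, was at 75.9 and 71.8 CPM in clone 12, at 46.1 and 47.5 CPM in clone 16, and at 19.9 and 23.6 CPM in empty vector. Among these genes, chosen for a rise in both clones, the clone with the higher level differed from gene to gene. Fn1, which encodes fibronectin, was at 13.5 and 12.4 CPM in clone 12, at 12.4 and 12.2 CPM in clone 16, and at 5.9 and 5.03 CPM in empty vector, a rise of 1.11 ± 0.175 (SE) and 1.05 ± 0.175 on the log2 scale that was among the smallest of the 22. Its value in clone 16 was 0.95, under the limit, when empty vector replicate 2 was left out. The chemokine gene Ppbp (1.66 and 1.32), the protocadherin gene Fat2 (1.25 and 1.62), the matrix gene Ccbe1 (1.10 and 1.46) and the citrullinating enzyme gene Padi1 (1.64 and 1.06) also rose, in log2 fold change in clone 12 and clone 16. The remaining higher genes were Bcl2l15, of the Bcl2 family, and 4 genes of unclear role, Xlr, RP24-368P9.1, RP23-265N8.2 and Gm15127, which the table lists under a clone name, of which all but RP24-368P9.1 lie on the X chromosome. Without empty vector replicate 1, 4 of the higher genes went just under the limit in 1 clone, namely Mmp13 (0.96 in clone 16), Bcl2l15 (0.96 in clone 16), Ccbe1 (0.98 in clone 12) and RP23-265N8.2 (0.99 in clone 12). RP23-265N8.2 was also at 0.97 without clone 12 replicate 1, and Padi1 at 0.98 without clone 16 replicate 2.

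**Figure D2:**
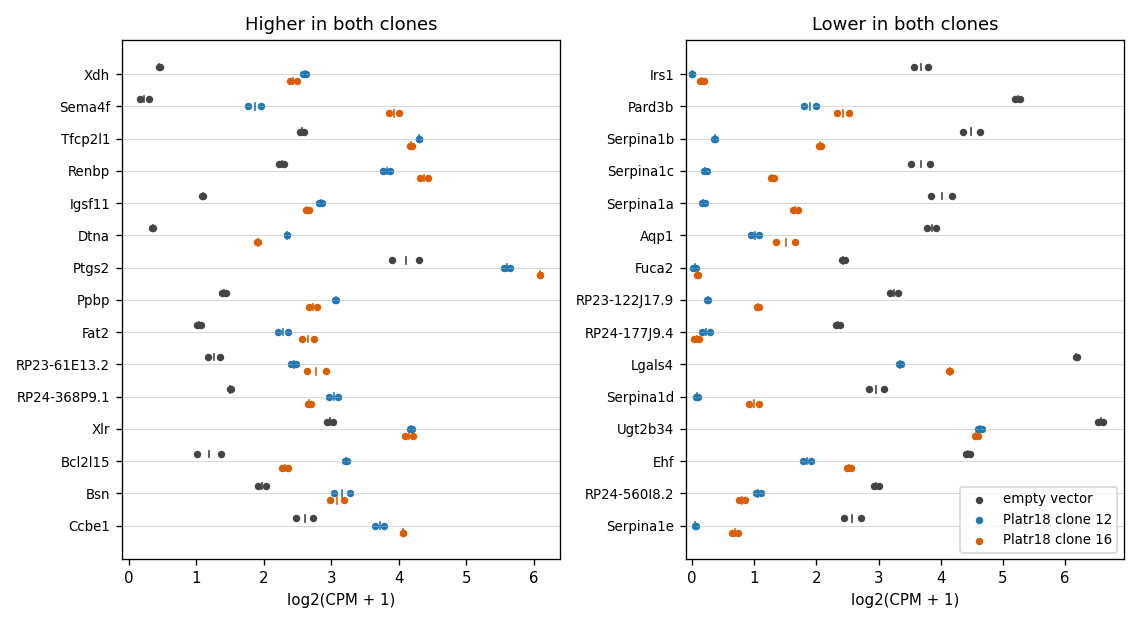
Level of each gene in log2(CPM + 1) (x axis) in the 6 libraries for the 15 genes with the largest shared rise (left, Platr18 not drawn) and the 15 with the largest shared fall (right). Points are libraries and ticks are group means. The genes were chosen for a difference between these same clone and empty vector libraries, so their separation from empty vector follows from the choice.

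The 61 lower genes had a median log2 fold change of -1.84 in clone 12 (range -1.03 to -4.13) and -1.51 in clone 16 (range -1.01 to -3.52), and 46 of them fell more in clone 12. In 27 of the 61 all 4 clone libraries were under 1 CPM. These 27 passed the filter of 1 CPM through the 2 empty vector libraries alone. Their low level in the clones is thus partly fixed by the filter and rests on that 1 control pair. In 4 genes (Igsf3, Snrpn, Aplp1 and Slc22a30) all 4 clone libraries held at most 3 reads. Irs1, the adaptor that links the insulin and IGF1 receptors to PI3 kinase, was at 12.8 and 10.9 CPM in empty vector, at 0 in both clone 12 libraries, and at 0.097 and 0.14 CPM in clone 16. It was at least 258.0-fold lower in clone 12, from a floor of 3 reads per library, and its log2 fold changes were -3.68 and -3.52. Pard3b, a relative of the polarity protein Par3, was at 37.8 and 35.7 CPM in empty vector, at 2.96 and 2.47 CPM in clone 12, and at 4.05 and 4.75 CPM in clone 16. Igsf3, an immunoglobulin superfamily membrane protein, was at 2.6 and 2.55 CPM in empty vector and at 0 in all 4 clone libraries, at least 56.0-fold lower in clone 12 and 61.5-fold lower in clone 16.

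Transport, membrane and epithelial genes followed. Aqp1, a water channel, was at 14.2 and 12.7 CPM in empty vector, at 1.1 and 0.936 CPM in clone 12, and at 2.15 and 1.55 CPM in clone 16. Lgals4, a galectin of epithelia of the gut, was at 71.9 and 70.9 CPM in empty vector, at 9.24 and 9.05 CPM in clone 12, and at 16.6 and 16.7 CPM in clone 16. Ehf, an ETS factor of epithelia, was at 21.2 and 20.1 CPM in empty vector, at 2.76 and 2.45 CPM in clone 12, and at 4.88 and 4.64 CPM in clone 16. In these genes, chosen for a fall in both clones, clone 12 was the lower of the 2 clones. Fuca2, a secreted fucosidase, was at 4.51 and 4.29 CPM in empty vector and between 0.0149 and 0.0698 CPM in the 4 clone libraries. Prex2, an activator of the GTPase Rac, was at 120 and 117.0 CPM in empty vector, at 24.7 and 20.6 CPM in clone 12, and at 32.6 and 31.2 CPM in clone 16. Klhl13, a substrate adaptor of a cullin ubiquitin ligase, was at 156.0 and 150.0 CPM in empty vector, at 62.1 and 58.3 CPM in clone 12, and at 42.9 and 40.3 CPM in clone 16. Cfb, complement factor B, fell from 130.0 and 126.0 CPM to between 44.1 and 57.9 CPM. RP24-560I8.2 fell by 1.90 in clone 12 and 2.16 in clone 16 on the log2 scale.

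The other lower genes are given here as log2 fold changes in clone 12 and clone 16. Cell surface and matrix genes among them were Sdc2, the heparan sulfate proteoglycan syndecan-2 (-1.52 and -1.92), Ptprd, a receptor tyrosine phosphatase (-1.24 and -1.17), the secreted protease gene Adamts15 (-1.83 and -1.55), the membrane carboxypeptidase gene Cpm (-1.89 and -1.23), and Vsig10 (-1.54 and -1.14), Fam171b (-1.58 and -1.29) and Clrn3 (-2.24 and -1.39), which encode membrane proteins. Sdc2 was at 2.53 and 3.03 CPM in empty vector, at 0.253 and 0.383 CPM in clone 12 and at 0 in both clone 16 libraries. Genes of signalling were Ddit4l, an inhibitor of mTORC1 (-1.53 and -1.51), Arhgef26, an activator of small GTPases (-1.97 and -1.56), Apba1, an adaptor of synaptic vesicle release (-2.13 and -1.36), Ipcef1 (-1.49 and -1.16) and Anks6, a protein of primary cilia (-1.34 and -2.05). Ddit4l was at 23.4 and 23.2 CPM in empty vector and between 7.22 and 7.83 CPM in the 4 clone libraries, which overlapped between the clones. Metabolic genes were Lpin3, a phosphatidate phosphatase (-1.69 and -1.51), Agmo, which cleaves ether lipids (-2.01 and -1.25), Bdh1, of ketone body metabolism (-1.27 and -1.14), Stbd1, which binds glycogen (-1.84 and -1.14), and Mettl7b (-1.13 and -1.58). Tmtc2 (-1.33 and -1.40), Smim1 (-1.11 and -1.06) and the lincRNA RP23-220P13.3 (-1.11 and -1.27) were also lower, as were the neuronal genes Aplp1 (-1.06 and -1.04), a relative of the amyloid precursor, and Hcn2, a pacemaker channel (-1.06 and -1.34).

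Of the 61 lower genes, 16 lay in 4 stretches of the genome in which shared lower genes followed each other within 500 kb. The stretch with the most genes held 6 on chromosome 12 (GRCm38.p6 chr12:103728156-103958976), namely Serpina1a, Serpina1b, Serpina1c, Serpina1d, Serpina1e and RP23-122J17.9, the last an unprocessed pseudogene of the family. The Serpina1 genes encode alpha-1 antitrypsin, a plasma inhibitor of proteases made mainly by the liver. Serpina1b was at 23.7 and 19.5 CPM in empty vector, at 0.297 and 0.276 CPM in clone 12, and at 3.19 and 3.11 CPM in clone 16. It was 75.3-fold lower in clone 12 and 6.85-fold lower in clone 16. Serpina1a was at 17.2 and 13.4 CPM in empty vector, at 0.149 and 0.123 CPM in clone 12, and at 2.24 and 2.09 CPM in clone 16. All 5 tested Serpina1 genes fell in both clones, with a median log2 fold change of -3.46 in clone 12 and -2.35 in clone 16. These genes are near-identical copies that share reads, and the authors' estimate divided such reads among them, so the level of each single copy is uncertain and the 5 are not separate observations.

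The second stretch, on chromosome 5, held Ugt2b34, Ugt2b35 and Ugt2b36, which encode enzymes that couple glucuronic acid to steroids and drugs, and Sult1d1, a sulfotransferase. Ugt2b34 was at 96.8 and 91.4 CPM in empty vector, at 24.3 and 23.3 CPM in clone 12, and at 23.3 and 22.3 CPM in clone 16. The clones overlapped in Ugt2b34, whereas Ugt2b36 was at 0.371 and 0.383 CPM in clone 12 and at 2.65 and 1.83 CPM in clone 16, against 9.27 and 7.72 CPM in empty vector. All 3 tested Ugt2b genes fell in both clones (medians -1.94 and -1.6). The third stretch, on chromosome 19, held Cyp2c67, Cyp2c68 and Cyp2c40, cytochrome P450 genes of the metabolism of drugs and fatty acids. With Cyp2c65, which lies further along the same chromosome, 4 of the 5 tested Cyp2c genes fell in both clones (medians of the 5: -1.80 and -1.18). Cyp2c68 was at 8.84 and 8.3 CPM in empty vector, at 0.149 and 0.0614 CPM in clone 12, and at 3.24 and 3.23 CPM in clone 16. The Ugt2b and Cyp2c copies also share reads, with the same uncertainty. Other products of liver and gut among the 61 were Ttr, the carrier of thyroid hormone and retinol (-2.15 and -1.14), Cyp2c65 (-1.40 and -1.51) and Slc22a30, an organic anion transporter gene (-1.14 and -1.12).

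The transcription factors that maintain hepatic and gut genes were then examined, a list drawn up after these values were seen. Of 11 tested, 2 were called lower in clone 12 (Prox1, log2 fold change -2.15, and Onecut2, -1.07) and 0 in clone 16, by limma at an unadjusted p under 0.001 and a log2 fold change of at least 1 in size. Over all genes tested, 2.83% were called lower in clone 12 and 1.13% in clone 16. The median log2 fold change of the 11 was -0.44 in clone 12 and -0.19 in clone 16, against 0.0067 and 0.029 over all genes tested. Below the limit, Cebpa was at -0.53 and -0.69, Cdx2 at 0.0089 and -1.0, and Gata6 at 0.078 and 0.14. Hnf4a was at 137.0 and 132.0 CPM in empty vector, at 82.0 and 89.0 CPM in clone 12, and at 110.0 and 115 CPM in clone 16. Its log2 fold changes were -0.65 in clone 12 and -0.26 in clone 16, and it was not called.

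**Figure D3:**
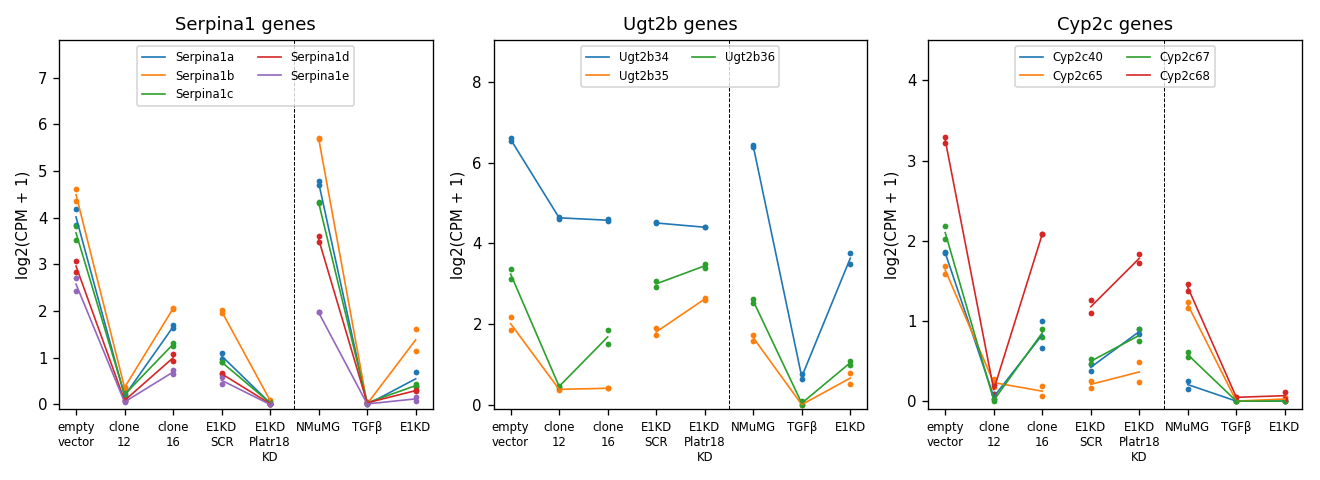
Level in log2(CPM + 1) (y axis) of the Serpina1, Ugt2b and Cyp2c genes that fell in both clones, in 8 conditions (x axis). Points are libraries, lines join the group means within a set of conditions that share a control, and the dashed line separates the 2 kinds of library, between which levels are not compared. The Serpina1 genes were low in both clones and nearly absent in E1KD Platr18 KD and TGFβ libraries, whereas the points of Ugt2b35, Ugt2b36 and Cyp2c68 lay higher in E1KD Platr18 KD than in E1KD SCR, by less than the limit of the call.

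The stretches before the Serpina1 and Cyp2c starts are printed here because several neighbouring genes of each family fell in both clones and copies within each share the marked letters. They were taken from RefSeq (GRCm38.p6), which held a promoter for 45 of the 61 lower genes and 15 of the 21 higher genes. Each is read in the direction of the gene and ends at its annotated start, over 250 bases for 2 Serpina1 copies and 120 bases for the Cyp2c genes, and capitals mark the AP-1 letters TGANTCA in the Serpina1 genes and CAAAGTCC, a core of HNF4 sites, in the Cyp2c genes.
Serpina1a (chr12:103863620-103863869, minus strand): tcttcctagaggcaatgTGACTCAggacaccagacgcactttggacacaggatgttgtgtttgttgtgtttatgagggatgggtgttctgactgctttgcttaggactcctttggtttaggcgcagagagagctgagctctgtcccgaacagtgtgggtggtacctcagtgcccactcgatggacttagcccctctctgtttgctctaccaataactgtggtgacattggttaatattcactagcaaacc
Serpina1b (chr12:103738190-103738439, minus strand): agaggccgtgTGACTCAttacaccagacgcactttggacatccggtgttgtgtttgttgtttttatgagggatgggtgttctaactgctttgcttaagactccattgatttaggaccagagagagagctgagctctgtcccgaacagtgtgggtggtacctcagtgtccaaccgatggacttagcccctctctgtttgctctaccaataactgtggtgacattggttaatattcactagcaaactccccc
Cyp2c40 (chr19:39812815-39812934, minus strand): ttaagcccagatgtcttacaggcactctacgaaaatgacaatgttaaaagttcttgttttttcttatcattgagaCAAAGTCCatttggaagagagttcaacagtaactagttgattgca
Cyp2c65 (chr19:39060886-39061005, plus strand): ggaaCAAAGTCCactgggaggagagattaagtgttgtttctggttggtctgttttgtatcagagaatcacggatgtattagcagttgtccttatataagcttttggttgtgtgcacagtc
Cyp2c68 (chr19:39741102-39741221, minus strand): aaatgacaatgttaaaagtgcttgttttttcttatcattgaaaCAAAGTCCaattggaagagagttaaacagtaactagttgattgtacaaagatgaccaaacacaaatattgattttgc

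Over the 250 bases before the start and on both strands, CAAAGTCC was found in 5 of 45 lower genes (11.1%), namely Cyp2c40, Cyp2c65, Cyp2c67, Cyp2c68 and Mettl7b. All but Mettl7b are copies of the Cyp2c family and not separate observations, and the share without them was not computed. CAAAGTCC was found in 0 of 15 higher genes and in 1.4% of the 8969 tested genes with a promoter in the table. The letters TGANTCA, which read the same on both strands, were found in 8 lower genes (17.8%), in 3 higher genes (20%) and in 5.68% of all. Of the 8, 4 were the copies Serpina1a, Serpina1b, Serpina1c and Serpina1d, and without the Serpina1 genes the share was 4 of 40 (10%). The E-box CACCTG was found in 16 lower genes (35.6%), in 4 higher genes (26.7%) and in 17.2% of all, and the letters TATAAA in 6 lower genes (13.3%), in 3 higher genes (20%) and in 7.6% of all. None of these words contains another. The matches describe letters only, the shares were not tested, and no binding was measured.

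The fourth stretch held Snrpn, Snhg14 and RP24-177J9.4 on chromosome 7 (GRCm38.p6 chr7:59307924-60140220), an imprinted locus from which long transcripts are read from the paternal copy. Snrpn, a protein of the spliceosome, was at 2.1 and 1.75 CPM in empty vector and at 0 in all 4 clone libraries, at least 41.9-fold lower in clone 12 and 46.0-fold lower in clone 16. Snhg14, the noncoding host of small nucleolar RNAs, was at 4.55 and 3.92 CPM in empty vector, at 0.683 and 0.66 CPM in clone 12, and at 0.388 and 0.545 CPM in clone 16. RP24-177J9.4 was at 4.21 and 3.99 CPM in empty vector and between 0.0277 and 0.215 CPM in the clones. These 3 entries overlap or adjoin each other on the minus strand, so reads of one may have been given to another. In E1KD SCR, whose libraries are of the same kind, the means were 0.0374 CPM for Snrpn, 0.96 CPM for Snhg14 and 0.208 CPM for RP24-177J9.4. In untransduced NMuMG, of another kind of library (below), they were 0.101, 0.96 and 0.953 CPM, and both clones lay below them in all 3 genes. M1P and L1P, the lines from tumor and lung, are also silenced for hnRNP E1. In them Snrpn averaged 0.506 and 0.317 CPM, Snhg14 2.95 and 2.80 CPM and RP24-177J9.4 2.34 and 2.93 CPM. Ube3a, the protein-coding gene beside the locus that is read on the opposite strand, was at 181.0 to 213.0 CPM in the 6 libraries and was not called.

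Lists of genes by function showed few further members moving in both clones. Over all genes tested, 1.27% were called higher and 2.83% lower in clone 12. In clone 16 these shares were 0.87% and 1.13%, and in both clones 0.145% and 0.402%. No list was tested as a set. Among 13 tested epithelial markers, 0 were called in both clones and 3 fell in clone 12 (Ocln, Dsp and Marveld2), where the list's median was -0.48, against -0.043 in clone 16. Marveld2, a protein of tricellular junctions, was at 7.7 and 6.89 CPM in empty vector, at 1.75 and 1.9 CPM in clone 12, and at 3.46 and 3.21 CPM in clone 16, with log2 fold changes of -1.55 and -0.93. Its value in clone 16 reached -1.0, the limit, without empty vector replicate 2. Among 10 mesenchymal markers Fn1 rose in both clones, and Snai2 and S100a4 rose in clone 12 (1.29 and 2.18, against 0.15 and 0.61 in clone 16). The summed level of the mesenchymal list was 920.0 to 965.0 CPM in empty vector, 1462 to 1566 CPM in clone 12 and 1210 to 1255 CPM in clone 16, and that of the epithelial list was 3752 to 4062, 4169 to 4760 and 4092 to 4206 CPM. None of 25 proliferation genes was called in either clone, and their medians were 0.023 and 0.019. Ranked by the smaller of the 2 changes, Cdkn2a, an inhibitor of the cell cycle, came first at -0.56 and -0.33, and Bub1b, of the spindle checkpoint, was at -0.62 and -0.30.

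Among 20 tested semaphorins, plexins and neuropilins, Sema4f rose in both clones and no other member was shared. Sema3c, a secreted semaphorin, was close to the limit in both (-1.0 and -0.98). Among 15 ephrins and members of the Slit-Robo and netrin systems 0 were shared, and Efnb1, a membrane ligand of Eph receptors, was at 0.99 and 0.97. The 10 axon-related factors that the study listed were chosen on these same libraries and are not independent evidence of a direction. Of these, Sema4f and Fn1 rose and Kif5c and Myo5b fell in both clones. Kif5c, a motor of axonal transport, was at 13.9 and 13.4 CPM in empty vector, at 3.57 and 3.96 CPM in clone 12, and at 5.42 and 5.66 CPM in clone 16. Myo5b, a motor of recycling vesicles, was at 15.3 and 13.9 CPM in empty vector, at 0.104 and 0.046 CPM in clone 12, and at 5.1 and 6.51 CPM in clone 16. The others were called in 1 clone or in none. Bmp7 fell in clone 16 (-2.48, and -0.59 in clone 12), Kalrn fell in clone 16 (-2.72, and -0.37) and Robo1 fell in clone 12 (-2.10, and -0.89 in clone 16). Efnb1 (above) and Etv4 (0.70 and 0.91) were called in neither. Efnb1 lay so close to the limit that leaving out empty vector replicate 2 brought it to 1.03 and 1.01, past the limit in both clones, and leaving out clone 12 replicate 1 or clone 16 replicate 1 brought that clone's value to 1.09 or 1.07. Etv4 reached 1.04 in clone 16 without clone 16 replicate 1 and 1.03 without empty vector replicate 1.

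In the signalling lists, Irs1 was the member of 17 insulin and IGF genes that fell in both clones, and Igfbp3 fell in clone 16 with -0.74 in clone 12. Of 33 TGFβ and BMP pathway genes 0 were shared, and the list's median was -0.12 in clone 12 and 0.079 in clone 16. In clone 12, 4 fell, against 2.83% of all genes tested. They were the receptor genes Tgfbr1 (-1.71, and -0.47 in clone 16), Tgfbr3 (-1.84 and 0.079) and Acvr2a (-1.19 and -0.43) and the activin subunit gene Inhbb (-2.21 and 0.69). Fst, the activin antagonist follistatin, rose in clone 12 (1.32) with 0.84 in clone 16, and in clone 16 the ligand gene Bmp7 fell (above). Of 12 cytokine and chemokine genes 4 rose and 1 fell in clone 12 and 2 rose in clone 16. Over all genes tested, 1.27% rose and 2.83% fell in clone 12, and 0.87% rose in clone 16. Il11 was shared, and Lif rose in clone 12 (1.38) with 0.94 in clone 16. Of 15 proteases and inhibitors of the matrix Mmp13 was shared, of 20 matrix genes Fn1, and of 14 integrins 0, with Itga5 at 0.87 and 0.66. Of 4 tested pluripotency factors Tfcp2l1 was shared. Of 17 genes of vesicle and polarity transport 7 fell in clone 12, against 2.83% of all genes tested, and Myo5b and Kif5c fell in both, against 0.402%. Of 11 serpins of clades A and B the 5 Serpina1 genes were shared. The lists of 20 ERK feedback genes (Ier3, 0.74 and 0.82), 17 immediate early genes and 13 interferon-stimulated genes (Ifit2, -0.44 and -0.49) had 0 shared members. Among the immediate early genes, Jun (1.07 and 0.44), Egr1 (1.06 and 0.45) and Atf3 (1.4 and 0.58) were called higher in clone 12 alone. The medians of that list were 0.57 and 0.44, against 0.0067 and 0.029 over all genes tested. The interferon-stimulated genes Ifit3 (-1.55 and -0.12), Ifit3b (-2.05 and -0.15) and Ddx58 (-1.23 and -0.28) were called lower in clone 12 alone, with list medians of -0.44 and -0.12. Over all genes tested, 1.27% were called higher and 2.83% lower in clone 12.

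Markers of cells other than epithelium were low throughout. No endothelial or basal marker was tested, since none reached 1 CPM in 2 libraries, and the markers of each summed to at most 0.188 and 0.894 CPM in any library. The summed neuron markers were 2.52 to 2.84 CPM in empty vector, 0.936 to 1.01 CPM in clone 12 and 11.9 to 13.2 CPM in clone 16, and Map2 went in opposite directions in the clones (-1.09 and 1.95). The immune markers summed to 1.84 to 2.41, 4.56 to 4.62 and 4.82 to 4.99 CPM, with Csf1r at 0.45 and 1.25 in log2 fold change, and the fibroblast markers summed to at most 1.54 CPM in any library, with Pdgfra at -0.28 and 0.96. Lum, a fibroblast marker, was at 0 in all 6 libraries. Their part in the shared genes was not tested.

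The clones were next set against each other, since a shared direction need not be a shared size. Between them, 463 genes were called higher in clone 16 (3.05% of genes tested) and 287 lower (1.89%). Of the 83 shared genes 13 were among them. Clone 16 minus clone 12, the log2 difference was -1.92 for Platr18 and 2.05 for Sema4f. Among the lower genes Myo5b (2.65), Klhdc7a (2.21), Sult1d1 (2.00), Cyp2c68 (1.94), Serpina1b (1.69), Ms4a4b (1.6), Serpina1a (1.48), Ugt2b36 (1.22), Serpina1c (1.08) and Ttr (1.01) fell less in clone 16, by the log2 differences given. Klhdc7a was at 19.3 and 19 CPM in empty vector, at 0.386 and 0.368 CPM in clone 12, and at 5.5 and 5.25 CPM in clone 16. Ppp1r9a, the actin-binding protein neurabin, went the other way, at 8.23 and 7.62 CPM in empty vector, 3.12 and 3.6 CPM in clone 12, and 0.859 and 0.852 CPM in clone 16.

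**Figure D4:**
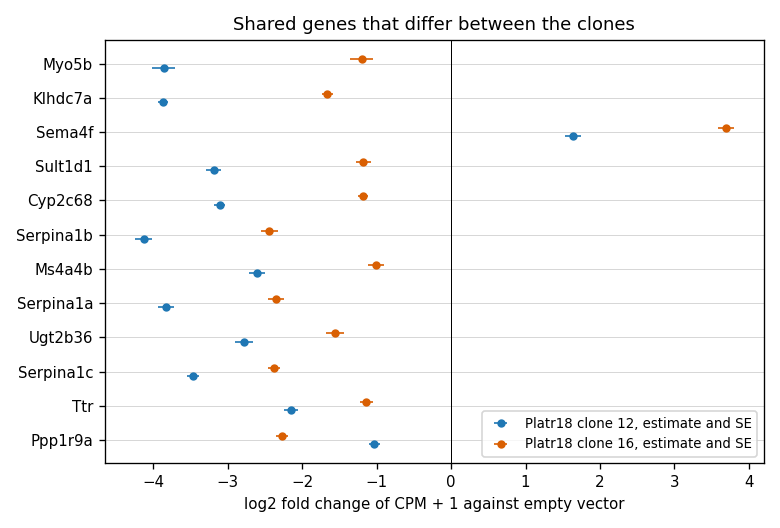
Log2 fold change of CPM + 1 against empty vector with its standard error (x axis) for the shared genes other than Platr18 that also differed between the clones (y axis), in clone 12 (blue) and clone 16 (orange). Only Sema4f and Ppp1r9a moved further in clone 16, and the other 10 genes fell further in clone 12.

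Of the 20 entries called in opposite directions, 12 were higher in clone 12 and lower in clone 16, and 8 the reverse. Emp2, a membrane protein of epithelia, was at 28.8 and 30.2 CPM in clone 12, at 0.693 and 0.684 CPM in clone 16, and at 2.36 and 2.55 CPM in empty vector. Lamb3, a laminin chain of the epithelial basement membrane, was at 7.92 and 10.0 CPM in clone 12, at 150.0 and 174.0 CPM in clone 16, and at 42.3 and 46.9 CPM in empty vector. Tex101, a surface protein of germ cells, was at 159.0 and 163.0 CPM in clone 12, at 0.333 and 0.251 CPM in clone 16, and at 38.1 and 38.3 CPM in empty vector. Xist, a lincRNA of the X chromosome, averaged 224.0 CPM in clone 12, 0.118 CPM in clone 16 and 81.9 CPM in empty vector. These genes were chosen for opposite calls against empty vector, so its place between the clones follows from the choice. The part of Xist in the shared genes of the X chromosome was not tested. Near the limit of the shared call, Ms4a4b (-2.61 and -1.01), Zfp608 (-1.15 and -1.02), Cyp2c40 (-1.80 and -1.02) and Ppp1r9a (-1.03 and -2.27) lay just inside, and Ppp2r2b (-2.07 and -0.99), Arhgap40 (-0.99 and -1.19) and Nid2 (-1.15 and -0.99) just outside. Single libraries decided the call of lower genes near the limit. Without empty vector replicate 1, Slc16a12 (-0.95), Ttr (-0.99) and Smim1 (-0.97) in clone 16 and Ppp1r9a (-0.98), Hcn2 (-0.86) and RP23-220P13.3 (-0.96) in clone 12 went under it, and without empty vector replicate 2 Zfp608 did in clone 16 (-0.99). Without clone 16 replicate 1, Cyp2c40 (-0.86), Zfp608 (-0.95) and Smim1 (-1.0) went under it in clone 16, as did Sult1d1 (-0.99) without clone 16 replicate 2 and Ppp1r9a (-0.95) in clone 12 without clone 12 replicate 1.

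Libraries that did not enter the fold changes of the shared genes were then used to follow them. They did enter the p-values of the calls, since all 20 libraries shared the estimate of the spread. In E1KD cells the shRNA lowered Platr18 from 2.92 and 3.1 CPM to 0.136 and 0.17 CPM. In E1KD SCR Platr18 was not above empty vector (means 3.01 and 3.37 CPM, -0.12 in log2 fold change, not called). Silencing therefore took Platr18 below the level of empty vector, and did not undo a rise like that of the clones. Over all genes tested, 70 were called higher (0.461%) and 127 lower (0.837%) in E1KD Platr18 KD than in E1KD SCR. The libraries with the shRNA against Platr18 were scaled to 146.8 and 147.3 M reads and those with the scrambled shRNA to 73.9 and 63.0 M reads, and the part of this depth in the values was not tested. Of the 21 genes higher in both clones, 5 fell on silencing (23.8%), namely Sema4f (-1.53), Fn1 (-1.59), RP24-368P9.1 (-1.48), Ppbp (-1.21) and Il11 (-1.03), and 1 rose, Mmp13 (2.02). Their median was -0.44, against -0.024 over all genes, and 17 of the 21 values were negative. Sema4f, for example, went from a mean of 2.82 CPM with the scrambled shRNA to 0.323 CPM with that against Platr18, and Mmp13 from 7.97 to 35.6 CPM. Both genes already differed between E1KD SCR and empty vector, by 1.7 for Sema4f and -1.34 for Mmp13 in log2 fold change.

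Among the 61 genes lower in both clones, 5 rose on silencing (8.2%) and 8 fell (13.1%), with a median of -0.046. The 5 that rose were Ms4a4b (2.19), Irs1 (1.51), Sult1d1 (1.45), RP23-220P13.3 (1.08) and Ttr (1.06). Irs1 went from a mean of 0.704 CPM to 3.84 CPM. The 8 that fell, as they had in the clones, were Aqp1 (-2.59), Klhl13 (-2.36), Ddit4l (-2.18), Smoc1 (-2.10), Serpina1b (-1.91), Prex2 (-1.50), Klhdc7a (-1.10) and Serpina1a (-1.01). With Platr18 itself, 11 of the shared genes were thus called on silencing in the direction opposite to that in the clones, and 9 in the same direction.

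TGFβ and hnRNP E1 silencing were compared with the same 2 NMuMG libraries, so their values are not independent of each other. Platr18 was at 1.24 and 1.45 CPM in NMuMG, at 2.4 and 2.7 CPM after TGFβ (0.60 in log2 fold change, not called) and at 17.9 and 14.6 CPM in E1KD (2.87). After TGFβ 799 genes were called higher (5.26%) and 1246 lower (8.21%), and in E1KD 744 were called higher (4.9%) and 482 lower (3.18%). Of the 21 genes higher in the clones, 9 rose after TGFβ (42.9%) and 0 fell, with a median of 0.83 against -0.097 over all genes. Among these were Il11 (7.12), Fn1 (5.86), Sema4f (4.51), Ccbe1 (3.99), Ptgs2 (3.95), Padi1 (1.67), Xdh (1.6) and Igsf11 (1.48). In E1KD 15 of the 21 rose (71.4%) and 0 fell, with a median of 1.67 against 0.16 over all genes, and the largest were Sema4f (4.13), Igsf11 (3.80) and Fn1 (3.76). Xdh, which rose after TGFβ, was at 0.017 in E1KD, and Dtna (0.046 and 0.15) and Bsn (-0.96 and -0.45) were called in neither comparison.

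Of the 61 genes lower in the clones, 32 fell after TGFβ (52.5%) and 2 rose, Prex2 (1.42) and Zfp608 (1.16), with a median of -1.06. In E1KD 36 fell (59.0%) and 6 rose, with a median of -1.45. Among those that fell in both, the log2 fold changes after TGFβ and in E1KD were -5.69 and -4.32 for Serpina1b, -5.71 and -2.78 for Ugt2b34, -6.16 and -2.77 for Aqp1, -5.74 and -3.89 for Lgals4, and -4.19 and -5.69 for Slc16a12, a monocarboxylate transporter. The 6 that rose in E1KD were Smoc1 (4.30), Nlrp4f (2.31), Fuca2 (1.72), Aplp1 (1.70), Igsf3 (1.55) and Hcn2 (1.32). Irs1 fell in E1KD (-1.25) and was at -0.80 after TGFβ. The imprinted genes Snrpn and Snhg14 were called in neither comparison.

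**Figure D5:**
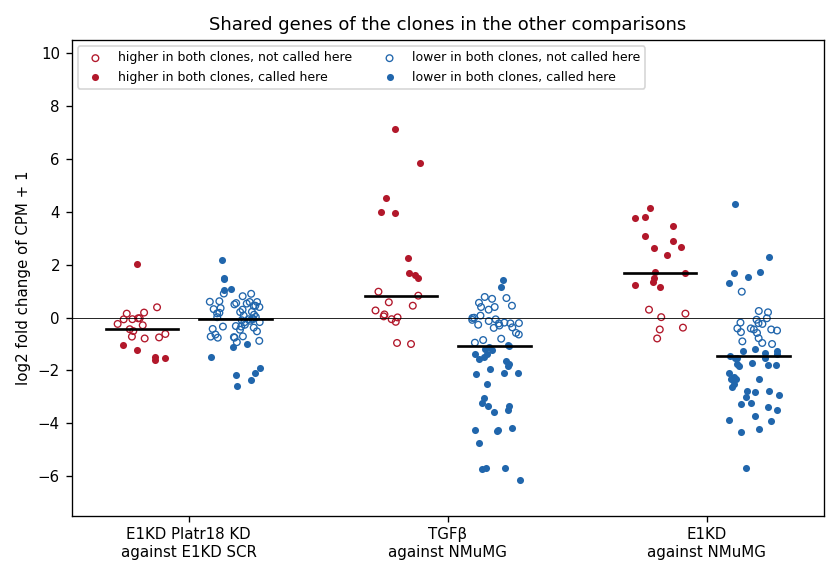
Log2 fold change of CPM + 1 (y axis) of the 21 genes higher (red, Platr18 left out) and the 61 genes lower (blue) in both clones, in 3 comparisons between other libraries (x axis). Filled points were called in that comparison and black bars are medians. The higher genes have medians of -0.44, 0.83 and 1.67 and the lower genes -0.046, -1.06 and -1.45.

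Finally, the clones were set against untransduced NMuMG in place of empty vector. These NMuMG libraries are of another kind, with mt-Rnr2, a mitochondrial ribosomal RNA, at 333.0 to 492.0 CPM in libraries of that kind against 113874 to 165149 CPM in those of the overexpression and shRNA lines, so kind and vector cannot be told apart in this comparison. Both clones lay on the same side of NMuMG as of empty vector for 20 of the 21 higher genes, the exception being Ccbe1, and for 51 of the 61 lower genes. The 10 exceptions were Smoc1, Cyp2c40, Cyp2c67, Cyp2c68, Mettl7b, Sult1d1, Nlrp4f, Arhgef26, Ms4a4b and Cfb. The share of all genes tested with both clones on the same side of NMuMG was not computed. The clone libraries are also those by which the genes were chosen, so these counts are not independent of the choice. Of the higher genes 17 and of the lower genes 29 were also called against NMuMG in both clones, where 20.7% of all genes tested were called higher and 11.3% lower in both. Smoc1 had a mean of 0.136 CPM in NMuMG and 2.64 CPM in empty vector, against 0.0304 CPM in clone 12 and 0.57 CPM in clone 16 cells.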

How the data were processed

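RNA for 20 libraries was extracted with Trizol and sequenced on an Illumina instrument (HiSeq2500). For alignment the authors used Bowtie2 (version 2.2.5, per the submitters' processing notes) with GRCm38.p6 and the M18 annotation. They then assigned reads to genes with the expectation-maximization step of Partek, and deposited CPM values for 54986 genes with 0.0001 added to each. The offset was subtracted. The values of each library summed to less than a full 1e6. In the 6 libraries 97.9 to 98.1% of the values of up to 20 reads were whole multiples of 1 read (tolerance 0.1), and the fractions left by the assignment kept the read counts from being rebuilt, so no count model was used. The limit of 3 reads covers counting error only. The use of strand in the assignment was not given in the sources used here.

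Genes reaching 1 CPM in 2 or more of the 6 libraries entered the test, made on log2(CPM + 1) with limma (3.58.1, R 4.3.3, trended variance), on 20 libraries with a mean for each of 10 conditions, which left 10 residual degrees of freedom, and p-values were adjusted by the Benjamini-Hochberg method over all 15178 genes. The code was tested on simulated data. The genes named were Platr18, the 15 with the largest shared rise and the 15 with the largest shared fall (by the smaller of the changes in the clones), shared members of 23 gene lists, the axon-related factors listed by the study, and, for a list with no shared member, its leading gene. Others were named after their values were seen, as were the gene families and the hepatic factors. The members and lists were chosen with earlier results of these data known. Promoters were read with pandas 2.3.3 and figures drawn with matplotlib 3.10.9. Alternatives covered the pseudocount, filter, scaling, libraries, controls and limits. A few genes that these rules would name are not reported here.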

Additional observations from a re-analysis of the deposited data

Results flagged for a closer look

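The size of the change differed between the clones in 13 of the shared genes, by a limma test of clone 16 against clone 12 at an unadjusted p under 0.001 and a log2 difference of at least 1 in size. The log2 differences, clone 16 minus clone 12, were -1.92 for Platr18 (Lncenc1), 2.05 for Sema4f and -1.23 for Ppp1r9a. They were 1.69 for Serpina1b, 1.48 for Serpina1a and 1.08 for Serpina1c, which share reads and count as 1 observation. They were 1.22 for Ugt2b36, 1.94 for Cyp2c68 and 2.0 for Sult1d1, and 2.65 for Myo5b, 2.21 for Klhdc7a, 1.6 for Ms4a4b and 1.01 for Ttr. Each clone is 1 line, so a difference between the clones and a difference in the amount of Platr18 cannot be told apart.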

How the results depend on the processing

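The counts of genes higher in both clones (22), lower in both (61), called in clone 12 (622), called in clone 16 (304) and called the opposite way on silencing (11) stayed within 1.5 times under another scaling, no filter, 6 or 10 libraries, split controls, an adjusted p of 0.05 and each library left out, except that the last of these counts could not be computed with 6 libraries, which hold no silencing. Leaving out single libraries gave ranges of 21 to 25, 58 to 73, 599 to 646, 303 to 314 and 10 to 12. They moved, in the same order, to 57, 117, 986, 510 and 41 with a pseudocount of 0.1, to 11, 20, 346, 142 and 4 where a mean of 5 CPM or more was required, so that 11146 genes were tested, and to 153, 257, 2623, 1222 and 92 with a log2 fold limit of 0.5. Against untransduced NMuMG, an alternative added after seeing the data that also changes the kind of library, the first 4 became 3136, 1716, 6277 and 5790. There, among the genes that the rule names and that are reported, the log2 fold change turned for Ccbe1 in clone 12 (-0.044) and for Kalrn in clone 12 (1.05), and 10 of the 61 lower genes did not have both clones below NMuMG. The cause was not tested. Across 14 alternatives (scaling, split controls, left-out libraries, the block and 10 libraries), 67 of the 83 shared genes stayed called in both clones, 16 higher and 51 lower. Same-numbered libraries share only a number, with correlations of their deviations of 0.133 (clone 12 and empty vector) and -0.136 (clone 16 and empty vector), and the replicate block gave 22, 61, 622, 304 and 11, as did the block with the numbers of clone 16 crossed, added after seeing the data. With 2 libraries a group and 1 control pair, genes under 1 CPM in the clones are limited by the pseudocount.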

Other observations

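Some of the largest changes were seen in a single clone, in genes chosen here after their values were seen. Mal2, a membrane protein of apical transport, was at 30.1 and 29.0 CPM in empty vector, at 0 and 0.046 CPM in clone 12, and at 33.9 and 32.6 CPM in clone 16, with log2 fold changes of -4.90 and 0.16. Inhbb, a chain of activin B, was at 3.37 and 3.92 CPM in empty vector, at 0 in both clone 12 libraries, and at 6.65 and 6.3 CPM in clone 16. S100a4, a marker of mesenchymal cells, was at 99.1 and 112.0 CPM in empty vector, at 481.0 and 482.0 CPM in clone 12, and at 164.0 and 158.0 CPM in clone 16. Serpinb5, the serpin maspin of mammary epithelium, was at 0.356 and 0.449 CPM in empty vector, at 0.134 and 0.107 CPM in clone 12, and at 7.74 and 8.31 CPM in clone 16. The collagen gene Col6a1 rose by 2.02 on the log2 scale in clone 16 and was at -0.16 in clone 12, and the chemokine gene Ccl2 rose by 1.58 in clone 16 and was at 0.099 in clone 12.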
